A study of Mus musculus with 12 samples.

Results

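Tsc22d3, which encodes the glucocorticoid-induced leucine zipper GILZ, was described together with the other genes of the mouse TSC22 family, Tsc22d1, Tsc22d2 and Tsc22d4, in cultured megakaryocytes given dexamethasone, a synthetic glucocorticoid. The members were the genes of that name on the array, each represented by a probe set that carries 1 gene symbol. All 4 were found, of 30142 named genes in all, and each had 1 such probe set. All 4 were among the 24265 genes tested, and all 12 arrays of each were above the negative control median, a guide to background.

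RNA came from 6 cultures of male C57BL/6 bone marrow hematopoietic stem cells grown towards megakaryocytes over 3 days with 100 ng per ml of thrombopoietin, rested overnight in 10% charcoal-stripped serum and taken at day 4 from an albumin gradient. Each culture was divided for 6 h between 100 nM dexamethasone and its vehicle, which gives 6 arrays per treatment. The labels name no genetic change in either group. Cultures 1 to 6 are the replicate numbers of the labels, which also number these cultures 1, 4, 5, 6, 7 and 8 in that order. All values are the deposited log2 expression values, so a difference of 1 is a 2-fold change on that scale.

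TSC22 proteins share a conserved TSC box and a leucine zipper through which they pair with themselves or each other. GILZ was named for its induction by glucocorticoids in lymphocytes, where it restrains inflammatory transcription by binding factors such as NF-kappaB and AP-1. Tsc22d1 was isolated as a gene stimulated by transforming growth factor beta. The long forms of Tsc22d1, Tsc22d2 and Tsc22d4 bind the pseudokinases NRBP1 and NRBP2 and act with WNK kinases in the control of cell volume.

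The sequences before the transcription starts of Tsc22d3 are shown because this member changed while its relatives did not pass the test, and because the glucocorticoid receptor binds DNA at elements made of the hexamer AGAACA and its reverse complement. RefSeq (GRCm38.p6) gave 3 start windows for Tsc22d3 and 5 for Tsc22d1. No window of Tsc22d2 or Tsc22d4 was in the set used, so those members could not be compared. Each window has 250 bases before a start and 50 after it, and the 250 bases are printed on the gene's strand, with matches to AGAACA or its reverse complement TGTTCT in capitals. The windows lie at chrX:140542669-140542918, chrX:140548572-140548821 and chrX:140600523-140600772, all on the minus strand, and the last is the most upstream start of the gene.
Tsc22d3 start 1: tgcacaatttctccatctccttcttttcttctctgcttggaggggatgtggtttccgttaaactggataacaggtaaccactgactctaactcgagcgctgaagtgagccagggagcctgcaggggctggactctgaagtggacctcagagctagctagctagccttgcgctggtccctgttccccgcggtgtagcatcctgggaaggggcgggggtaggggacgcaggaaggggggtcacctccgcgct
Tsc22d3 start 2: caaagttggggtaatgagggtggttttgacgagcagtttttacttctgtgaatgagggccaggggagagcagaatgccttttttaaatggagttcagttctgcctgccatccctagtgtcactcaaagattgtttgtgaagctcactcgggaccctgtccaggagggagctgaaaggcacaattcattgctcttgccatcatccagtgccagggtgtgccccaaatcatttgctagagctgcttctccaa
Tsc22d3 start 3: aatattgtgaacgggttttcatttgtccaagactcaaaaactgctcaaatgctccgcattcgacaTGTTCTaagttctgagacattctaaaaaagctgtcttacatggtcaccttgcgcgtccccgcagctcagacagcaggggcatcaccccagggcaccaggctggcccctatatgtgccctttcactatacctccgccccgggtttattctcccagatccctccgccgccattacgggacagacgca

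Both strands of all windows were searched for the full element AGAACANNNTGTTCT and for the hexamer AGAACA, which is part of it. No window of Tsc22d3 or Tsc22d1 held the full element, which was in 3 of 32851 windows of all genes. Letters this rare are absent from nearly all windows, so their absence here tells nothing about these genes. The hexamer was found in 1 of the 3 Tsc22d3 windows, that of start 3, beginning 185 bases before the start. It was also in 1 of the 5 Tsc22d1 windows, beginning 137 bases before a start, in this stretch of chr14:76504074-76504109 on the plus strand.
Tsc22d1 start 4: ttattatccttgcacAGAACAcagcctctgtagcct

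The hexamer is common, with 19.0% of all windows holding at least 1. The FOXO element GTAAACA (3.65% of windows), the cAMP response element TGACGTCA (1.79%) and the SMAD palindrome GTCTAGAC (0.213%) were also searched on both strands, and none matched a window of Tsc22d3 or Tsc22d1. These matches describe letters in short windows and do not show binding.

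The arrays were first compared as a whole. Array medians lay within 0.099 of each other, and within a treatment r between any 2 arrays was 0.990 to 0.994 over all probe sets. The negative control median, a guide to background, was 6.15 to 6.39, and the 95th percentile of these controls was 9.98 to 10.39. Megakaryocyte markers were bright, with a mean level over 13 measured markers of 15.47 in vehicle and 15.50 in dexamethasone, and none under the negative control median throughout. By limma at an adjusted p under 0.05, 4 of the 13 (30.8%) changed, against 12.0% of all genes tested: the platelet tubulin gene Tubb1 fell by 1.14, while Gp9, Gata1 and Clec1b rose by 0.44, 0.29 and 0.24. That 12.0% counts dim genes too. A filter at the negative control median left fewer genes but called 3427 rather than 2900. The share among brighter genes was thus higher than 12.0%. Of 9 neutrophil markers tested, 5 (55.6%) changed: S100a8, S100a9, Ltf and Camp fell and Mmp8 rose. Ltf and Mmp8 lay near background, above the negative control median on 2 and 9 of 12 arrays. The summed log2 level of the 10 neutrophil markers measured ranged from 67.77 to 76.90 in vehicle and from 63.22 to 74.48 in dexamethasone. Of 7 stem and progenitor markers tested, Kit and Flt3 rose and Meis1 fell, though Flt3 was under the negative control median on every array. Of 8 mast cell, basophil and eosinophil markers tested, Cpa3 rose by 0.64 and Mcpt8 fell by 0.28, and no monocyte, erythroid or lymphocyte marker passed, with 3 of 9, 1 of 4 and 2 of 8 at an unadjusted p under 0.05. The part of other cells' RNA in the results was not tested. Of 9 lymphocyte markers measured, 7 were under the negative control median on every array. In such bulk samples fewer cells of a type and less RNA per cell cannot be told apart.

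Tsc22d3 rose in every culture. Its log2 level in vehicle was 8.91, 8.77, 8.98, 9.07, 8.81 and 8.93 in cultures 1 to 6. In dexamethasone it was 11.62, 11.35, 11.49, 11.35, 11.29 and 11.25 in the same order. The treatments did not overlap, since the lowest dexamethasone array lay 2.17 above the highest vehicle array. Vehicle arrays were above the negative control median but below the 95th percentile of these controls in 6 of 6 cultures, and dexamethasone arrays were above both in 6 of 6.

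The mean level of Tsc22d3 went from 8.91 ± 0.11 to 11.39 ± 0.14 (SD, n = 6). The change was 2.48 on the log2 scale (SE 0.06), a 5.57-fold rise with a 95% interval from 5.05 to 6.15, and limma gave an adjusted p of 7.49e-08 over all genes tested. An exact sign-flip permutation test over the 6 cultures gave p = 0.03125, two-sided, the smallest that 6 cultures allow. By culture the fold was 6.54, 5.97, 5.69, 4.86, 5.56 and 4.99 for cultures 1 to 6. Culture 1 was highest and culture 4 lowest, and the SD of the 6 log2 changes was 0.16. Neutrophil markers differed between the cultures as well: the mean log2 change of the 10 measured was lowest in culture 2 at -0.45 and highest in culture 5 at -0.07. The part of neutrophil RNA in the Tsc22d3 result was not tested.

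**Figure D1:**
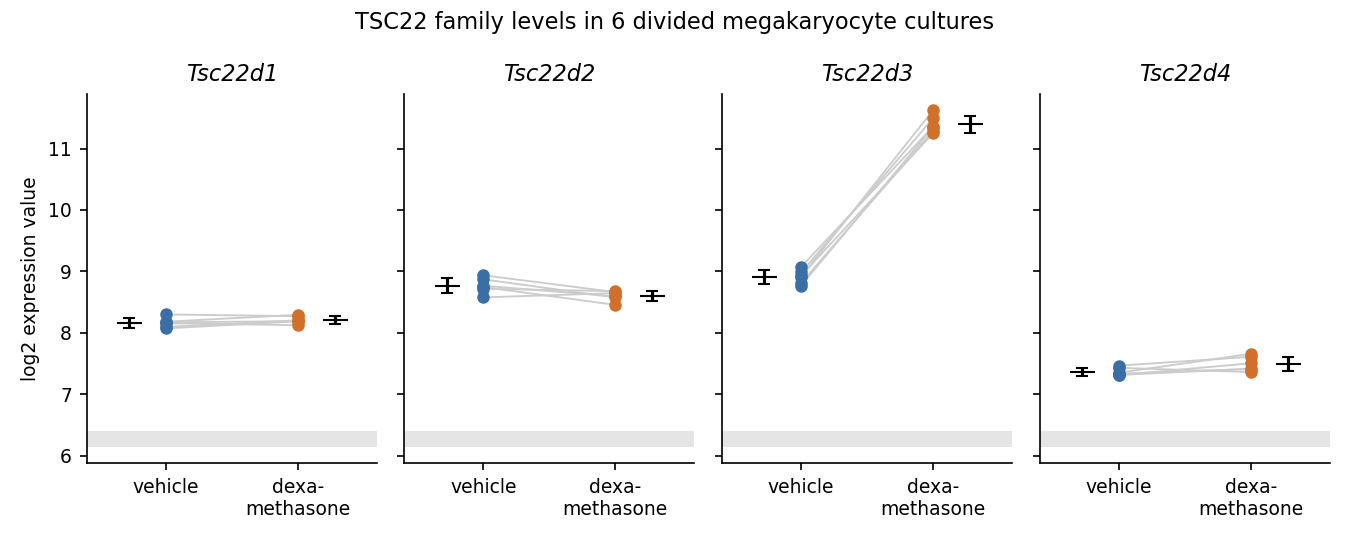
Log2 expression value (vertical axis) of each family member in vehicle (blue) and dexamethasone (orange), with a grey line joining the arrays of 1 culture, black bars for the mean ± SD of 6 arrays, and a grey band for the range of negative control medians. Tsc22d3 moves from about 8.91 to 11.39 with no overlap, while the arrays of the other members overlap between treatments.

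Tsc22d1, the transforming growth factor beta-stimulated member, was near the same level in both treatments. Its lowest, median and highest log2 levels were 8.07, 8.16 and 8.30 in vehicle and 8.12, 8.20 and 8.29 in dexamethasone. The ranges overlapped almost fully. The difference was 0.05 (SE 0.04), higher in 4 of 6 cultures, with an adjusted p by limma of 0.521 and a 95% interval from -0.05 to 0.15. On the scale of the deposited values the interval ran from 1.04-fold lower to 1.11-fold higher. The probe sets of Tsc22d1, Tsc22d2 and Tsc22d4 were above the 95th percentile of the negative controls on 0 of 12 arrays. After quantile normalization the difference was -0.01, so its sign depends on the scaling.

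Tsc22d2, a partner of the NRBP pseudokinases, had lowest, median and highest log2 levels of 8.58, 8.76 and 8.94 in vehicle and 8.46, 8.62 and 8.68 in dexamethasone. Dexamethasone arrays reached lower, but the ranges overlapped. The difference was -0.17 (SE 0.06), lower in 5 of 6 cultures, with an adjusted p by limma of 0.118, and the exact sign-flip permutation test gave p = 0.09375. The 95% interval of the fold ran from 1.02 to 1.23-fold lower before adjustment for the number of genes. Culture 2 went the other way at 0.07, and the other cultures lay between -0.30 and -0.04. Under quantile normalization the difference was -0.22 and passed the threshold with an adjusted p of 0.0283, and over 18 alternative settings the adjusted p ranged from 0.0283 to 0.280.

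Tsc22d4, a member also studied in liver lipid metabolism, had lowest, median and highest log2 levels of 7.31, 7.34 and 7.47 in vehicle and 7.36, 7.46 and 7.66 in dexamethasone. The highest dexamethasone arrays stood above all vehicle arrays and the rest overlapped. The difference was 0.13 (SE 0.05), higher in 5 of 6 cultures, with an adjusted p by limma of 0.181 and an exact sign-flip permutation p of 0.0625. Culture 4, where Tsc22d3 changed least, had the largest difference of Tsc22d4 at 0.31, and culture 6 was at -0.07. Over the 6 cultures r between the changes of Tsc22d3 and Tsc22d4 was only 0.05. The 95% interval of the fold ran from 1.001 to 1.19-fold higher before adjustment for the number of genes.

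Of the 4 members, 1 passed the threshold, against a background of 12.0% of all genes tested of which 7.39% were higher and 4.56% lower in dexamethasone. Likewise 1 of 4 members moved the same way in 6 of 6 cultures, against 19.5% of all genes. Non-overlapping treatments were also seen in 1 of 4 members, against 6.73% of all genes. Tsc22d3 was at position 13 of 24265 in the order of changes counted from the largest rise, and genes at least 2-fold higher and past the threshold made up 0.424% of those tested. The other 3 members lay at positions 4195 for Tsc22d4, 7762 for Tsc22d1 and 21723 for Tsc22d2.

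**Figure D2:**
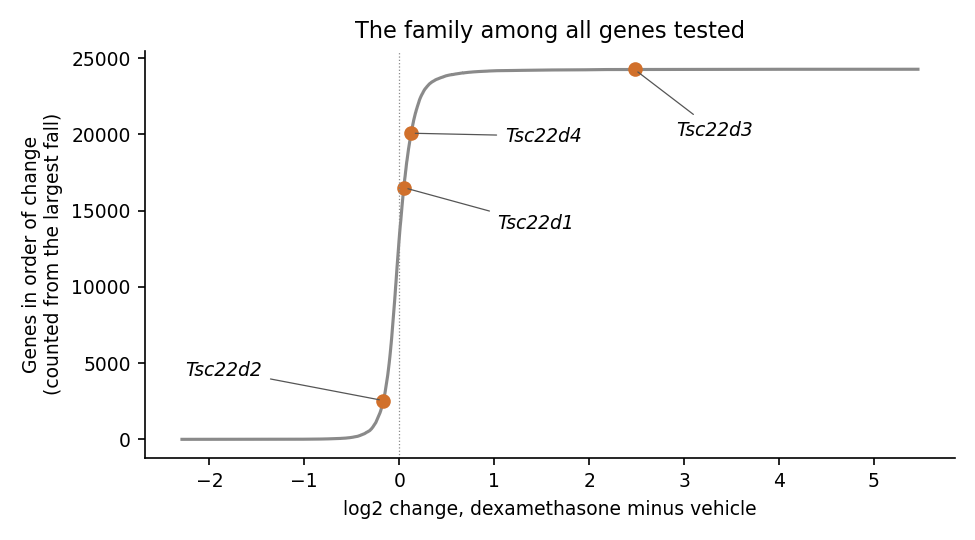
All 24265 genes tested, in order of their log2 change between dexamethasone and vehicle (horizontal axis), with their number in that order, counted from the largest fall, on the vertical axis. Tsc22d3 stands in the upper tail at 2.48, and the other members lie on the steep part of the curve between -0.17 and 0.13.

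Whether the members responded differently was tested on the differences between their log2 changes within cultures. All 6 pairs of members were compared by the exact sign-flip permutation test, with p adjusted by Benjamini-Hochberg over the 6 pairs. Tsc22d3 changed more than Tsc22d4 by 2.35 ± 0.20 (SD, n = 6), more than Tsc22d1 by 2.43 ± 0.16 and more than Tsc22d2 by 2.64 ± 0.23, in 6 of 6 cultures for each. Each had an adjusted p of 0.0375, from an exact p at the smallest value that 6 cultures allow.

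Among the members that did not pass on their own, 2 of 3 pairs differed, and both hold Tsc22d2. How often pairs of other genes differ in this way was not counted. Of single genes, 19.5% moved the same way in 6 of 6 cultures. Tsc22d2 lay below Tsc22d1 in its change by 0.22 ± 0.14 (SD, n = 6) and below Tsc22d4 by 0.29 ± 0.12, each in 6 of 6 cultures and with an adjusted exact p of 0.0375. This again comes from an exact p at the smallest value that 6 cultures allow, so it does not grade the size of a difference. Tsc22d1 and Tsc22d4 differed by 0.08 ± 0.13, with 3 of 6 cultures each way and an adjusted exact p of 0.281. The 6 culture values of that difference ran from -0.29 to 0.04 for Tsc22d1 minus Tsc22d4. Levels of different genes were not compared, since probe sets differ in how they bind their targets.

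**Figure D3:**
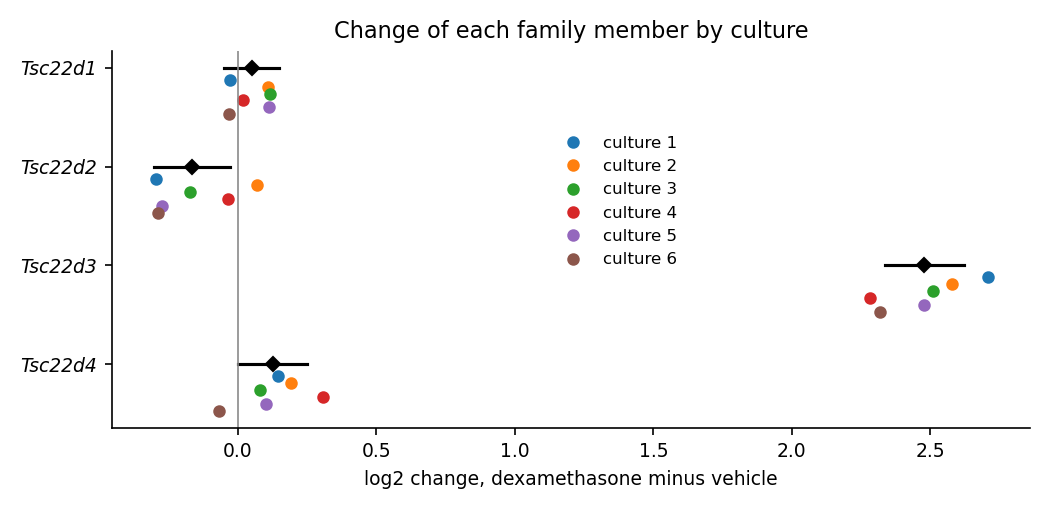
Log2 change between dexamethasone and vehicle (horizontal axis) for each member, with a coloured point per culture and a black diamond and line for the limma estimate and its 95% interval. The 6 points of Tsc22d3 lie between 2.28 and 2.71, and those of the other members between -0.30 and 0.31.

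The genes next to Tsc22d3 in the order of changes were, above it, Bmp2, Wee1, Man2a1, Mettl7a1 and Gm6093, with log2 changes from 3.03 to 2.55. Below it came Fkbp5, a co-chaperone of the glucocorticoid receptor, at 2.37 (SE 0.09) and Map7d2 at 2.34 (SE 0.09). Slc43a3, a purine base transporter, followed at 2.33 (SE 0.09), 4930523C07Rik at 2.30 (SE 0.07) and Havcr2, the immune checkpoint receptor TIM-3, at 2.26 (SE 0.06). Each of these 10 was higher in 6 of 6 cultures, with an adjusted p by limma of at most 2.62e-06.

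The genes whose pattern was most like that of Tsc22d3 were found by Pearson correlation of log2 values over the 12 arrays. They were the mitophagy receptor gene Bnip3 (r = 0.999), Fkbp5 (0.998), the glycolysis regulator Pfkfb3 (0.997), Zfp36l2 (0.997), which encodes an mRNA-destabilising zinc finger protein, and Gm16439 (0.997). The 12 points fall into the 2 treatments, so these values carry the treatment difference. With each treatment's mean removed, r with Tsc22d3 was 0.88 for Fkbp5, 0.84 for Bnip3, 0.74 for Pfkfb3, 0.73 for Zfp36l2 and 0.60 for Gm16439. The genes were picked by r on these same arrays, so the latter values are in part selected and are no separate check. Zfp36l2 rose by 2.09 (SE 0.04), from 12.04 to 14.13.

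The other members had other neighbours. Tsc22d1 was most like Fadd (r = 0.915), Gm23665 (0.900) and Rgl2 (0.889) over the 12 arrays. Tsc22d2 was most like the splicing factor gene Sf3b3 (0.961), the chromatin remodeller Smarca4 (0.959) and the ubiquilin gene Ubqln1 (0.958). The differences of these 3 were -0.31, -0.16 and -0.18, with adjusted p by limma of 0.0541, 0.120 and 0.0939. Tsc22d4 was most like Ap2a1 (0.938), the inositol phosphatase gene Inpp5k (0.925) and Selenop (0.906). None of the 9 passed the threshold. These correlations describe 12 arrays that share cultures and treatments. The genes named had the highest r of all those tested, so a high value is in part selected. Gm23665 had mean levels of 5.62 in vehicle and 5.81 in dexamethasone, under the range of negative control medians.

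Receptors and factors reported to drive Tsc22d3 transcription did not pass the threshold by limma in any of 10 genes tested, against 12.0% of all genes, and 0 of 10 is too near that share to be a result about the list. At an unadjusted p under 0.05 there were 3, and the median change was 0.02 beside -0.01 over all genes. Nr3c1, the glucocorticoid receptor, was 9.04 ± 0.07 in vehicle and 8.87 ± 0.06 in dexamethasone (SD, n = 6), lower in 6 of 6 cultures, with an adjusted p by limma of 0.0527. It passed under 7 of 18 alternative settings, with adjusted p from 0.0140 to 0.176 over all 18 and 0.0261 without the culture block. Foxo3, a forkhead factor, was higher in 6 of 6 cultures by 0.13 (SE 0.05, adjusted p 0.116). Its relative Foxo1 was 8.51 ± 0.18 and 8.52 ± 0.12. Nr3c2, the mineralocorticoid receptor, and Foxo4 were under the negative control median on every array. Creb1, Atf1 and Ctcf differed by -0.05, 0.06 and -0.09.

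Of a list of genes linked to GILZ in reports, most of them for proteins said to bind it, 13 were tested. In it 2 rose and 2 fell, with a median change of -0.04. Binding was not checked here for any gene of the list, Pparg included. The share called was 30.8%, against 12.0% of all genes, dim ones included, and it was not set against genes of like level. Pparg, the lipid regulator, rose from 10.91 ± 0.18 to 11.39 ± 0.09 (SD, n = 6), a change of 0.48 (SE 0.06) with an adjusted p by limma of 0.00104, and passed under all 18 alternative settings. Cebpb, a factor of the C/EBP family, rose by 0.31 (SE 0.07, adjusted p 0.0205), and the call ended without culture 1, 3 or 4, with adjusted p of 0.0522, 0.0568 and 0.0637, after quantile normalization (0.0572) and with all probe sets fitted (0.0890).

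The NF-kappaB subunit gene Rel fell by 0.24 (SE 0.05, adjusted p by limma 0.0159), lower in 6 of 6 cultures, and the deacetylase gene Hdac1 fell by 0.20 (SE 0.05, adjusted p 0.0410). The call of Rel ended without the culture block, at an adjusted p of 0.0824, and with all probe sets fitted, at 0.0800. That of Hdac1 ended under 10 of 18 alternative settings, among them no culture block (0.0596) and the loss of any 1 culture, where the change lay between -0.22 and -0.16. Relb was lower in 6 of 6 cultures with a difference of -0.14 and an adjusted p of 0.0635, or 0.0453 without the culture block. Rela, the main NF-kappaB partner of GILZ, was 12.03 ± 0.16 and 12.16 ± 0.08, and Jun was 10.48 ± 0.26 and 10.66 ± 0.17, with adjusted p of 0.192 and 0.104. Mdm2 and Nras differed by 0.00 and 0.03.

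Partners of the long TSC22 forms and the WNK kinase arm showed no call by limma in 15 genes tested, against 12.0% of all genes, and 1 at an unadjusted p under 0.05. A count of 0 of 15 is likewise too near that share to be a result about the list. They had a median change of -0.04, and 7 of the 15 were under the negative control median on every array. Nrbp1 was 12.45 ± 0.05 and 12.47 ± 0.09 (SD, n = 6), and Nrbp2 was among the 7. Wnk1, the main kinase of the arm, was 10.63 ± 0.12 and 10.64 ± 0.06. Its substrate kinase gene Oxsr1 was 9.04 ± 0.05 and 8.97 ± 0.08. Cul3, Cab39 and Cab39l, which encode a ubiquitin ligase scaffold and scaffolds of these kinases, differed by -0.08, 0.06 and -0.07. The ion transporter gene Slc12a2, which the kinases activate, was lower in 6 of 6 cultures with a difference of -0.19 (SE 0.06) with an adjusted p by limma of 0.0669, and it was the gene that passed under 3 of 18 alternative settings.

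In the transforming growth factor beta pathway, the source of the name of Tsc22d1, 4 of 17 genes tested rose and 1 fell, with a median change of 0.00. The share called was 29.4%, against 12.0% of all genes, dim ones included, and it was not set against genes of like level. The ligand gene Tgfb3 rose from 6.91 ± 0.25 to 7.46 ± 0.23 (SD, n = 6), a change of 0.55 (SE 0.05) with an adjusted p by limma of 0.000279. The ligand gene Tgfb1 was 15.41 ± 0.10 and 15.58 ± 0.27 and did not pass (adjusted p 0.373).

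The receptor gene Tgfbr1 rose by 0.48 (SE 0.06, adjusted p by limma 0.00134), whereas Tgfbr2 differed by -0.04 (SE 0.06). The signal transducer Smad3 rose by 0.40 (SE 0.06, adjusted p 0.00344) and the SMAD-binding repressor Ski by 0.50 (SE 0.06, adjusted p 0.000985). Tgfb3, Tgfbr1, Smad3 and Ski were each higher in 6 of 6 cultures and passed under all 18 alternative settings. Smad4, the common partner of SMAD proteins, was higher in 6 of 6 cultures by 0.17, with an adjusted p of 0.0501, and it passed under 5 of 18 alternative settings, with adjusted p from 0.0248 to 0.174 over all 18. The repressor Tgif1 fell by 0.23 (SE 0.04, adjusted p 0.0101) but lay near background, above the negative control median on 5 of 12 arrays, and its call ended with all probe sets fitted (0.0607). Smad2, Smurf2 and Skil differed by -0.04, 0.00 and -0.02.

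**Figure D4:**
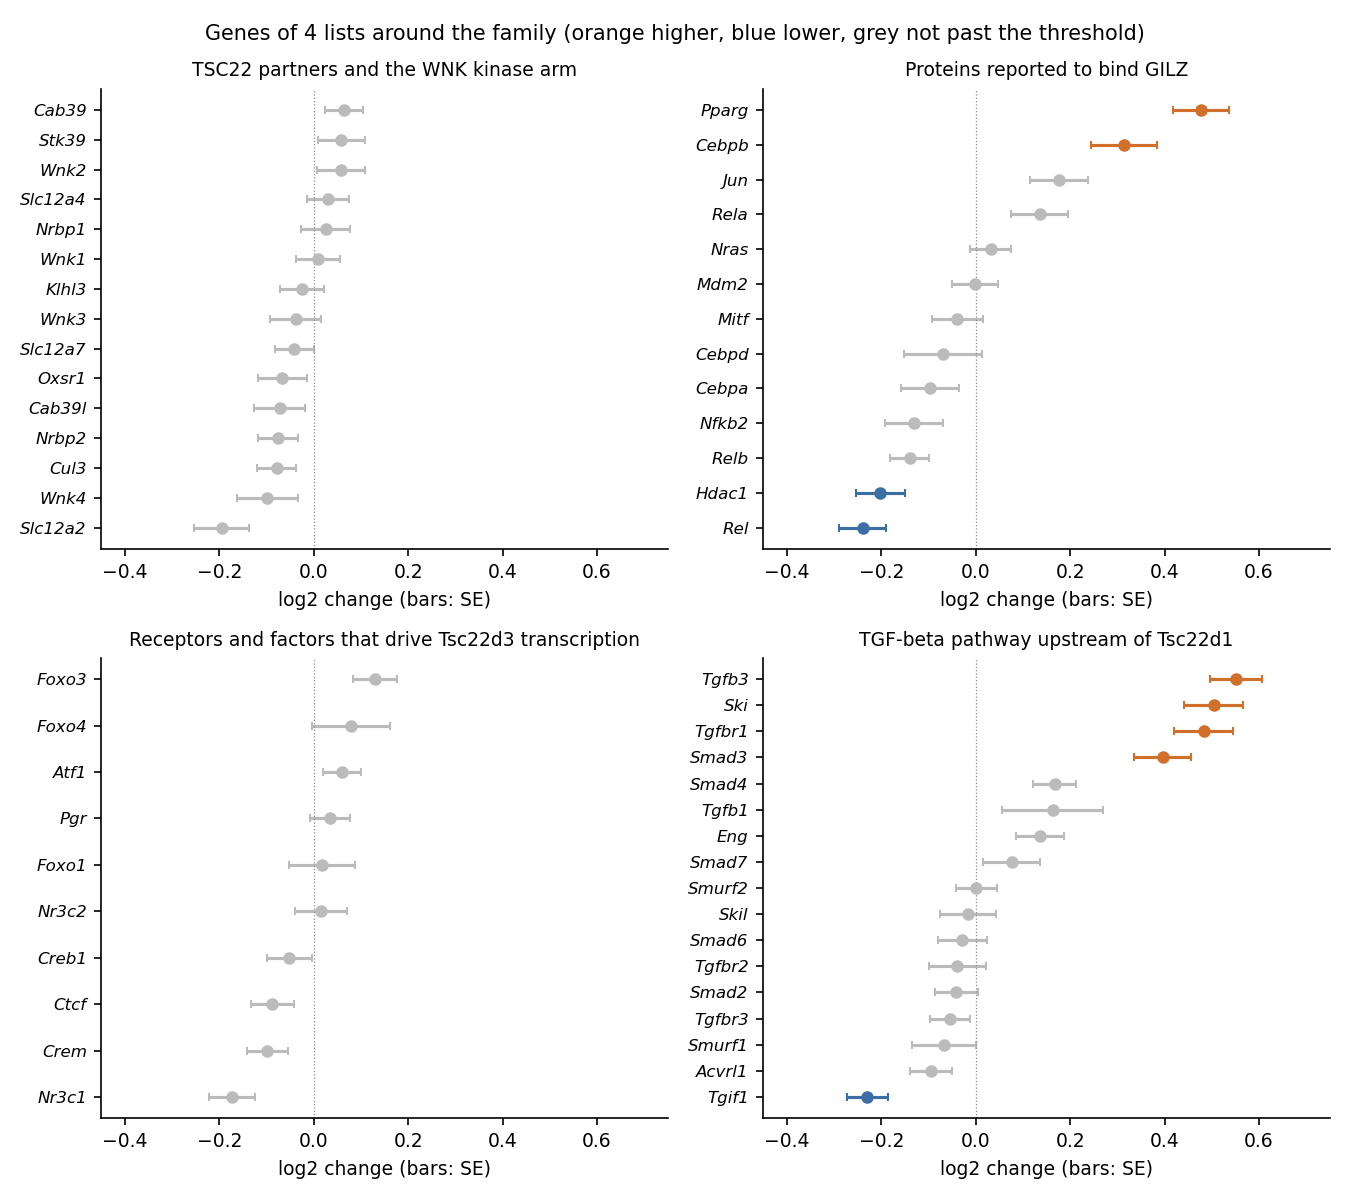
Log2 change between dexamethasone and vehicle with its SE (horizontal axis) for the tested genes of 4 lists, coloured orange for higher, blue for lower and grey for not past an adjusted p of 0.05. Pparg and Cebpb, and Tgfb3, Ski, Tgfbr1 and Smad3, lie to the right, and the lists of WNK partners and of Tsc22d3 regulators hold no coloured point.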

How the data were processed

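Per the labels, 50 ng of RNA was amplified and labelled with biotin for 1-colour arrays. The deposited table holds log2 values of 72688 probe sets and 12 arrays (background correction, normalization and annotation: not given in the sources used here). That they are log2 values was judged from their range. They were used without further scaling because medians and quartiles differed by less than 0.2 between arrays.

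A table of the platform's annotation gave 1 symbol to 30604 probe sets, and gene numbers of 22818 matched RefSeq (GRCm38.p6), which updated 827 symbols. A gene's probe set was the one of highest mean on the 12 arrays. Genes above the 25th percentile of the array on at least 6 arrays were tested. The probe set of Tsc22d1 carries 1 symbol but a second gene number.

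The model was fitted in R 4.3.3 with limma 3.58.1 (lmFit, eBayes), two-sided, with culture as a block and Benjamini-Hochberg adjustment over all genes. The threshold was an adjusted p under 0.05. The labels' protocol states that cultures were divided, which sets the pairing. Deviations of same-culture arrays correlated at 0.049 to 0.247, over 0.1 in 4 of 6 pairs. The fit was tested on simulated data. The labels do not tie cultures to mice. The exact p-values rest on how the within-culture changes vary from culture to culture. Those of limma rest on that spread after eBayes moderates it with the variances of all genes tested. Neither kind rests on a spread between mice. The number of arrays limits the precision.

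Members and lists were chosen with earlier results of these data known. Named genes were all members, list genes past the threshold, the 4 others of highest mean in each list, and neighbours of a member by correlation or change. Nr3c1, Nr3c2, Foxo1, Foxo4, Crem, Relb, Cab39l, Oxsr1, Nrbp2, Slc12a2, Smad4 and Tgfbr2 were added after their values were seen. Alternatives were other scalings, filters, probe set rules, variance models and pairings, and leaving out each culture. Probe sets with several symbols were not used.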

Additional observations from a re-analysis of the deposited data

How the results depend on the processing

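The rise of Tsc22d3 kept its direction and its call under all 18 alternatives, with changes from 2.43 to 2.52 and adjusted p from 6.34e-12 to 5.99e-06 by limma. Tsc22d4 stayed short of the threshold under all 18, from 0.08 to 0.16. Tsc22d1 did so too, and its sign turned under quantile normalization (-0.0075). Tsc22d2 passed under quantile normalization (-0.22). Without the replicate block the change of Tsc22d2 was the same with an adjusted p of 0.117, and the block changed no call of a member. All genes called numbered 2900, with 1794 higher and 1106 lower. There were 1215 when all probe sets were fitted and 1878 to 2331 when 1 culture was left out, lowest without culture 3. Quantile normalization gave 1417 higher and 1738 lower, and it turned the balance of directions.

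Among the genes linked to GILZ in reports the count, 4 in the main fit, was 1 with all probe sets fitted and 2 to 3 without 1 culture (2 without culture 1, 3 or 4). It was 5 with culture as a random effect and under filters at the 50th percentile and at the negative control median. Among WNK partners it was 1, Slc12a2, under quantile normalization and under filters at the 50th percentile and at the negative control median. Among regulators of Tsc22d3 it was 2 (Nr3c1 and Crem) under quantile normalization. It was 1 (Nr3c1) with no replicate block, with culture as a random effect, with trend and robust, under both stricter filters and when low values were raised to the 25th percentile. In the transforming growth factor beta pathway it was 4 with all probe sets fitted and 5 to 6 under the other alternatives. The cause of these moves was not tested. Fitting all probe sets adjusts over more features and also changed the SE, for Tsc22d3 from 0.063 to 0.070. The parts of the adjustment and of the SE were not told apart.

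With 5 cultures the exact test between members cannot go below 0.0625, so the adjusted p of 5 of the 6 pairs was 0.075 whichever culture was left out. For Tsc22d1 minus Tsc22d4 it was 0.25 to 0.5625, with differences from -0.10 to -0.03. The other differences ran from 0.18 to 0.25 for Tsc22d1 minus Tsc22d2, from -2.46 to -2.37 for Tsc22d1 minus Tsc22d3, from -2.71 to -2.57 for Tsc22d2 minus Tsc22d3, from -0.33 to -0.26 for Tsc22d2 minus Tsc22d4 and from 2.31 to 2.43 for Tsc22d3 minus Tsc22d4. Signal over background limits Nrbp2, Nr3c2 and other genes below the negative control median, where a change may not have shown. Each member had 1 probe set, so transcripts of a gene could not be told apart.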
